A study of Mus musculus with 12 samples.

Results

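The genes described here are the co-receptors Cd14 and Ly96 and 8 Toll-like receptors (Tlr1, Tlr2, Tlr4, Tlr6, Tlr7, Tlr8, Tlr9 and Tlr13) in mouse macrophages grown from bone marrow. They were found by matching the identifiers of the deposited count table to gene symbols, which gave 10 genes of 37620 listed. All 10 passed the filter on low counts that left 14616 genes for testing. The cells were primary cultures at day 7 from C57BL/6 mice, and the labels give no genetic change. Hypoxia-lactate cells were kept in 1% oxygen with 25 mM sodium lactate, and hypoxia-NaCl cells in 1% oxygen with 25 mM NaCl. Normoxia-lactate cells were kept in normoxia with 25 mM sodium lactate, and normoxia-NaCl cells in normoxia with 25 mM NaCl, which supplies the same amount of sodium. Each group had 3 libraries of polyadenylated RNA, and whether these came from different mice or culture dishes is not stated. A p-value therefore sets a difference only against the spread between these libraries, which may not be a spread between mice. The sources used here do not give the medium or the time spent in each condition. No stimulus of a Toll-like receptor is named in the labels.

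Toll-like receptors are membrane proteins with which macrophages recognise microbial molecules. At the cell surface, CD14 picks up lipopolysaccharide and passes it to a complex of TLR4 and MD-2, the protein made by Ly96. TLR2 pairs with TLR1 or TLR6 to bind bacterial lipopeptides. In endosomes, TLR7, TLR9 and TLR13 bind single-stranded RNA, unmethylated DNA and bacterial ribosomal RNA. Their signals pass through adaptors such as MyD88 to NF-kappaB and interferon regulatory factors, which switch on cytokine genes.

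The libraries held 22705978 to 49885085 reads assigned to genes, and 2 libraries stood apart. Hypoxia-lactate 3 had 11437 genes with at least 10 reads, against 13198 to 14767 in the others, and a median Spearman correlation of 0.906 with the other libraries. Its mitochondrial transcripts took 0.486% of gene reads, against 2.04% to 4.75% in the others. Normoxia-NaCl 1 had the highest mitochondrial share, 4.75%, and a median correlation of 0.966, against 0.977 to 0.987 in the other 10. The common coefficient of variation between libraries of a group, estimated by edgeR, was 38.2%. It was 24.3% when hypoxia-lactate 3 was left out and 21.2% when normoxia-NaCl 1 was left out too. Results are therefore given with all 12 libraries and, where they differ, without hypoxia-lactate 3. All 8 macrophage markers were present, with summed levels of 33151 to 48424 CPM (read counts scaled to each library's size) over the libraries, whereas summed T and NK cell markers reached at most 0.503 CPM and erythroid markers 0.999 CPM. Markers of other cell types were seen. Of 5 plasmacytoid dendritic cell markers only Tcf4 and Bst2 reached 1 CPM, the defining Siglech stayed at 0.731 CPM or less, and their sum was 220 CPM in hypoxia-lactate 3 and 117 to 143 CPM in the other libraries. Of 6 fibroblast markers 4 reached 1 CPM, led by the collagen genes Col1a1 and Col1a2. Their sum of 25.2 to 100.3 CPM overlapped between all groups but followed the library number. It was 78.5 to 100.3 CPM in libraries numbered 1, 97.7 CPM in hypoxia-lactate 3 and 25.2 to 53.0 CPM in the rest. Neutrophil markers summed to 0.275 to 40.2 CPM, also with overlap, led by S100a8 and S100a9, while Ly6g stayed at 0.0593 CPM or less. The neutrophil sum was 21.0 to 40.2 CPM in libraries numbered 2, 34.9 CPM in hypoxia-lactate 3 and 0.275 to 4.89 CPM in the rest. The B cell, conventional dendritic cell and mast cell markers summed to at most 3.14, 2.61 and 4.21 CPM. Their part in the results was not tested.

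Cd14 was by far the most abundant of the 10 transcripts. On a scale of CPM per kilobase of exon, which allows genes of different length to be set side by side, Cd14 averaged 669 ± 236 (SD over 12 libraries). Tlr13 averaged 59.2 ± 10.8, Tlr7 55.5 ± 11.2 and Tlr2 39.9 ± 8.89 CPM per kilobase. Tlr13 and Tlr7 lay closer to each other than their spread. Tlr8 followed with 25.3 ± 7.01 and Tlr4 with 19.0 ± 4.75 CPM per kilobase. Tlr9 averaged 7.91 ± 5.77 and Ly96 7.74 ± 2.57 CPM per kilobase, so the order of these neighbours lay within their spread. Tlr6 averaged 3.67 ± 0.904 and Tlr1 2.41 ± 0.719 CPM per kilobase. Of the receptor genes outside the list, Tlr3, which binds double-stranded RNA, averaged 1.83 ± 0.333 CPM per kilobase. Tlr5, the flagellin receptor, reached 1.24 CPM at most, Tlr12 0.183 CPM and Tlr11 0.0457 CPM.

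**Figure D1:**
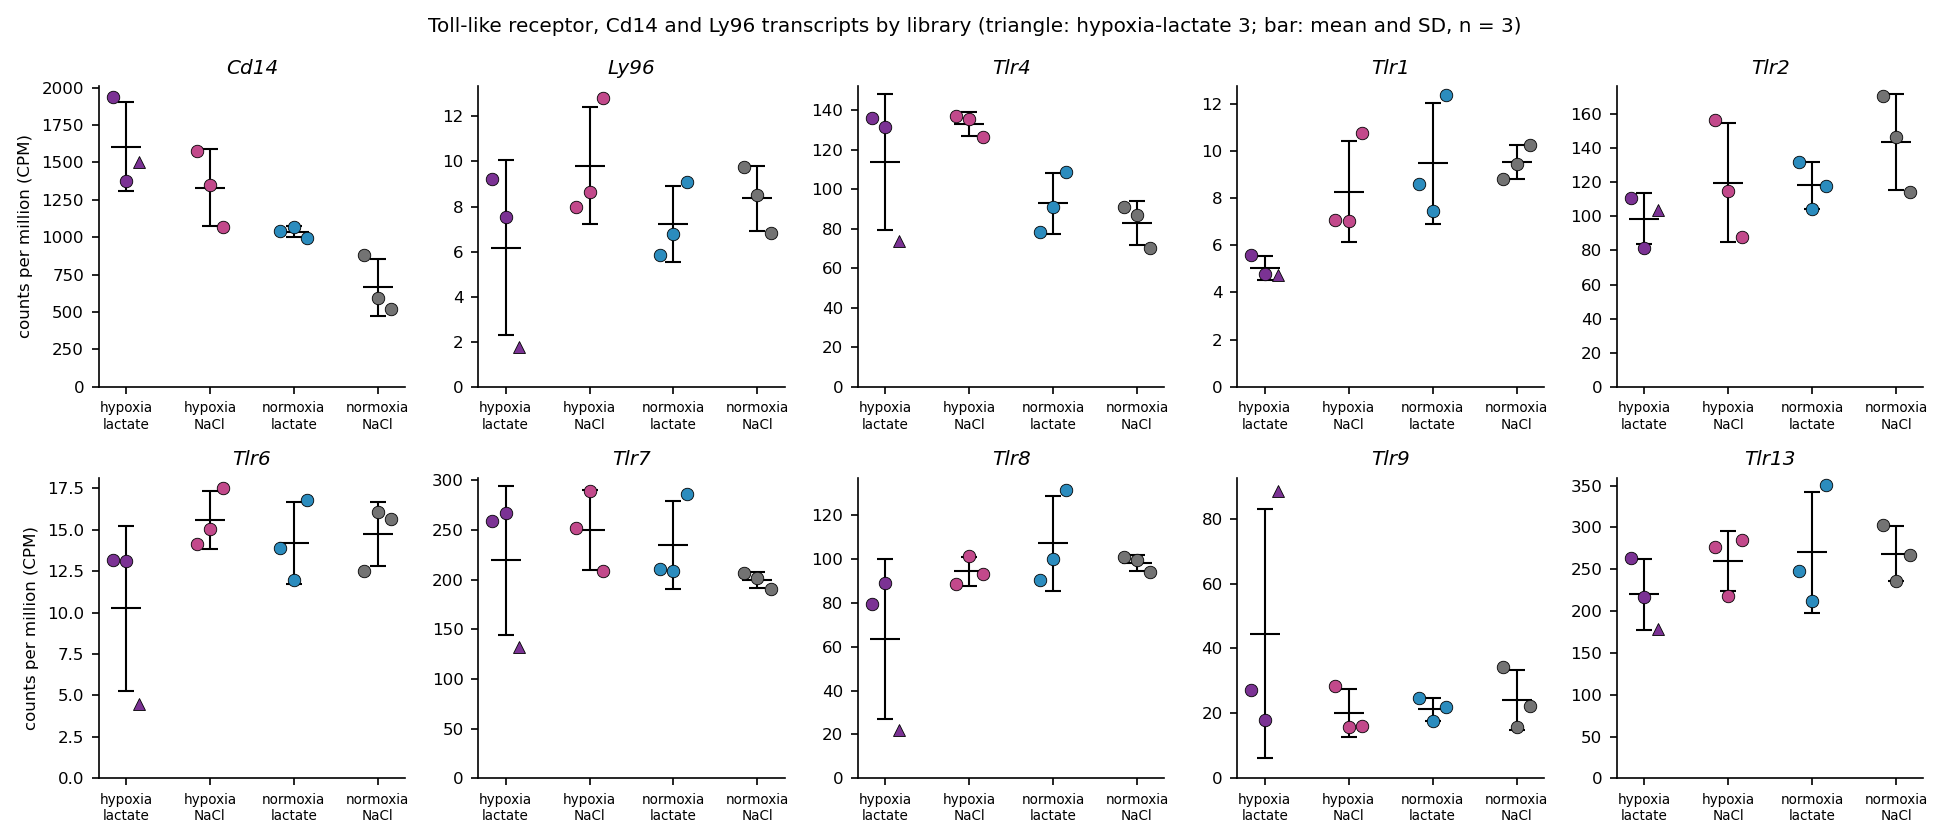
Level in CPM (vertical axes, starting at 0) of the 10 genes in the 3 libraries of each group, with bars for the mean and SD (n = 3) and a triangle for hypoxia-lactate 3. Cd14 lies between 1068 and 1937 CPM in hypoxia and between 522 and 1069 CPM in normoxia, and the triangle lies apart from the other points in Ly96, Tlr6, Tlr8 and Tlr9.

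Cd14 (ENSMUSG00000051439), the lipopolysaccharide-binding co-receptor, rose in hypoxia. It had 1937, 1373 and 1505 CPM in hypoxia-lactate libraries, 1578, 1348 and 1068 CPM in hypoxia-NaCl libraries, 1041, 1069 and 997 CPM in normoxia-lactate libraries and 881, 596 and 522 CPM in normoxia-NaCl libraries. The lowest hypoxia library and the highest normoxia library lay within 1 CPM of each other, and the other 5 hypoxia libraries lay above all 6 normoxia libraries. Averaged over both media, Cd14 was 1.76-fold higher in hypoxia than in normoxia (log2 change 0.82 ± 0.17 SE, edgeR adjusted p = 0.0360). It was the 1 member of 10 that passed in this comparison, in which 1.38% of all tested genes passed and 1.12% did so as higher. Without hypoxia-lactate 3 the log2 change was 0.83 ± 0.16 and the adjusted p 0.00981. In RNA from whole cultures, more RNA per cell and more cells of a kind that carries the transcript cannot be told apart.

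The call for Cd14 in hypoxia was lost in 9 of the 22 alternatives tried. The adjusted p was 0.0590 with upper-quartile scaling of all libraries. It was 0.0818 without hypoxia-lactate 1, 0.126 without hypoxia-NaCl 1 and 0.107 without hypoxia-NaCl 2. Leaving out normoxia-lactate 1, 2 or 3 gave 0.130, 0.104 and 0.107, and leaving out normoxia-NaCl 2 or 3 gave 0.105 and 0.0941. The log2 change of Cd14 stayed between 0.73 and 0.96 in all 22, and the other 13 made the call.

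The largest contrast for Cd14 was between cells given both treatments and cells given neither. Hypoxia-lactate libraries averaged 1605 ± 295 CPM and normoxia-NaCl libraries 666 ± 190 CPM (SD, n = 3 each), without overlap. The fold was 2.41 (log2 change 1.27 ± 0.24 SE, edgeR adjusted p = 0.0214). Cd14 was again the 1 member of 10 that passed, where 1.61% of all tested genes passed and 1.17% did so as higher. Without hypoxia-lactate 3 the log2 change was 1.31 ± 0.24 and the adjusted p 0.00786, in a fit where 6.86% of all genes passed, 3.6% as higher. The adjusted p was 0.0533 without hypoxia-lactate 1, 0.101 without normoxia-NaCl 2 and 0.0964 without normoxia-NaCl 3, and 0.340 when only these 6 libraries entered the fit.

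The separate effects of low oxygen and lactate on Cd14 did not pass edgeR's test with all libraries. With NaCl in the medium, hypoxia libraries averaged 1331 ± 256 CPM and normoxia libraries 666 ± 190 CPM, without overlap, and the log2 change was 1.00 ± 0.24 (edgeR adjusted p = 0.219). This comparison passed without hypoxia-lactate 3, which belongs to neither group but counts in the common estimate of the spread (adjusted p = 0.0417), and by DESeq2 (adjusted p = 0.0124). With lactate in the medium, hypoxia libraries averaged 1605 ± 295 CPM and normoxia libraries 1036 ± 36.2 CPM, again without overlap (log2 change 0.63 ± 0.24, edgeR adjusted p = 0.281). Lactate cells and NaCl cells in normoxia did not overlap in Cd14 either, at 1036 ± 36.2 and 666 ± 190 CPM (log2 change 0.64 ± 0.24, edgeR adjusted p = 1.00). Under hypoxia, lactate cells and NaCl cells overlapped, with a log2 change of 0.27 ± 0.24 (edgeR adjusted p = 0.653). For genes that lay higher, lack of overlap is a description only, because the share of all tested genes doing so is not given. The interaction, which asks whether hypoxia changed Cd14 differently with lactate than without it, was -0.37 ± 0.34 on the log2 scale (edgeR adjusted p = 0.902). In the order of group means, hypoxia-lactate above hypoxia-NaCl, then normoxia-lactate, then normoxia-NaCl, no pair of neighbours passed a test; hypoxia-NaCl and normoxia-lactate were not compared by one.

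**Figure D2:**
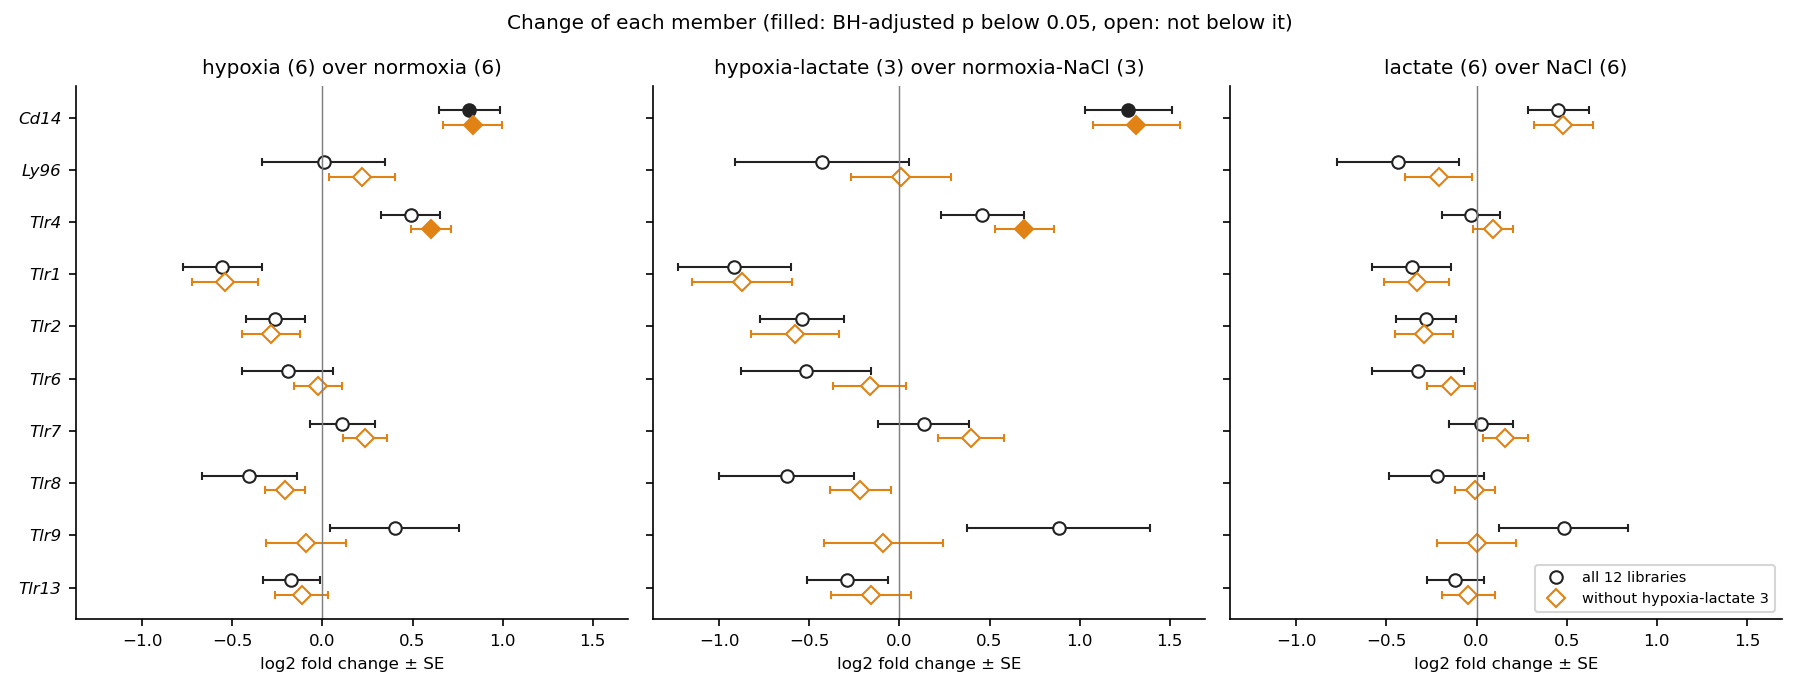
Log2 fold changes (horizontal axes) with their SE for the 10 genes in hypoxia over normoxia, hypoxia-lactate over normoxia-NaCl and lactate over NaCl, fitted with all 12 libraries (circles) and without hypoxia-lactate 3 (diamonds). Filled symbols passed an adjusted p of 0.05: Cd14 with both sets of libraries and Tlr4 without hypoxia-lactate 3, in the first 2 contrasts.

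Tlr4 (ENSMUSG00000039005), the lipopolysaccharide receptor itself, gave a result that turned on a single library and on the test used. It had 136, 131 and 74.0 CPM in hypoxia-lactate libraries, 137, 136 and 126 CPM in hypoxia-NaCl libraries, 78.5, 90.9 and 109 CPM in normoxia-lactate libraries and 91.2, 87.1 and 70.4 CPM in normoxia-NaCl libraries. All hypoxia libraries but hypoxia-lactate 3 lay above all 6 normoxia libraries, and hypoxia-lactate 3 lay within the normoxia range. With all libraries the log2 change in hypoxia was 0.49 ± 0.16 (edgeR adjusted p = 0.186), which did not pass. Without hypoxia-lactate 3 it was 0.60 ± 0.11, a 1.52-fold higher level in hypoxia (edgeR adjusted p = 0.00727). In that fit 7.59% of all tested genes passed, 3.91% as higher, and 2 of the 10 members did, Cd14 and Tlr4. DESeq2 called Tlr4 with all libraries (log2 change 0.50 ± 0.17, adjusted p = 0.0464).

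Of the pairwise comparisons of a hypoxia group with a normoxia group, 3 were fitted, and hypoxia-NaCl against normoxia-lactate was not. In 2 of the 3, edgeR did not call Tlr4 with all libraries and called it without hypoxia-lactate 3. Between hypoxia-NaCl and normoxia-NaCl, at 133 ± 5.87 and 82.9 ± 11.03 CPM, the groups did not overlap and the log2 change was 0.68 ± 0.23 (edgeR adjusted p = 0.532). Without hypoxia-lactate 3, whose omission lowered the shared spread, the log2 change was 0.68 ± 0.15 and passed (adjusted p = 0.0402). In that fit 2 members, Cd14 and Tlr4, passed between these groups, where 1.79% of all genes passed and 1.23% did so as higher. Between hypoxia-lactate and normoxia-NaCl the log2 change of Tlr4 was 0.46 ± 0.23 (edgeR adjusted p = 0.278), and 0.69 ± 0.16 without hypoxia-lactate 3 (adjusted p = 0.0263). Between hypoxia-lactate and normoxia-lactate it was 0.30 ± 0.23 (edgeR adjusted p = 0.561) and 0.52 ± 0.16 without that library (adjusted p = 0.180). Lactate gave Tlr4 a log2 change of 0.16 ± 0.23 in normoxia and -0.22 ± 0.23 in hypoxia (edgeR adjusted p = 1.00 and 0.705). The second value was 0.01 ± 0.17 without hypoxia-lactate 3. The interaction for Tlr4 was -0.39 ± 0.32 (edgeR adjusted p = 0.902).

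Ly96 (ENSMUSG00000025779) makes MD-2, the subunit that holds the lipid part of lipopolysaccharide in the TLR4 complex. It had 9.22, 7.54 and 1.78 CPM in hypoxia-lactate libraries, 7.99, 8.66 and 12.8 CPM in hypoxia-NaCl libraries, 5.83, 6.78 and 9.07 CPM in normoxia-lactate libraries and 9.73, 8.53 and 6.84 CPM in normoxia-NaCl libraries. Apart from the low value of hypoxia-lactate 3, which rests on 30 reads, the groups overlapped widely. The log2 change in hypoxia was 0.01 ± 0.34 with all libraries and 0.22 ± 0.18 without hypoxia-lactate 3 (edgeR adjusted p = 0.996 and 0.489). The first of these turned negative under 3 other settings (upper-quartile scaling, limma-voom and the replicate block) and without any one of 6 single libraries, so no direction can be given. In edgeR's tests the transcripts of the lipopolysaccharide complex therefore differed: Cd14 passed, Tlr4 passed without hypoxia-lactate 3, and Ly96 passed in neither fit. Whether Cd14 and Ly96 differed from each other in their change was not tested.

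Tlr2 (ENSMUSG00000027995), the common partner in lipopeptide recognition, averaged 98.7 ± 15.2 CPM in hypoxia-lactate, 120 ± 34.8 CPM in hypoxia-NaCl, 118 ± 13.6 CPM in normoxia-lactate and 144 ± 28.2 CPM in normoxia-NaCl libraries (SD, n = 3 each). Hypoxia-lactate libraries, at 82 to 111 CPM, lay below normoxia-NaCl libraries, at 114 to 170 CPM. The log2 change between these groups was -0.54 ± 0.23 (edgeR adjusted p = 0.210), and averaged over media it was -0.26 ± 0.16 in hypoxia (adjusted p = 0.487). Tlr2 passed in 1 of the 23 and 1 of the 22 alternatives, the fit with a replicate block and without hypoxia-lactate 3 (adjusted p = 0.0202 and 0.0497).

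Tlr1 (ENSMUSG00000044827) had 5.61, 4.76 and 4.75 CPM in hypoxia-lactate libraries, 7.05, 7.02 and 10.7 CPM in hypoxia-NaCl libraries, 8.60, 7.47 and 12.4 CPM in normoxia-lactate libraries and 8.82, 9.45 and 10.3 CPM in normoxia-NaCl libraries. All 3 hypoxia-lactate libraries lay below the 9 other libraries. The log2 change from hypoxia-lactate over normoxia-NaCl was -0.92 ± 0.31, which edgeR did not call (adjusted p = 0.135) and DESeq2 did (log2 change -0.87 ± 0.28, adjusted p = 0.0243). Without hypoxia-lactate 3 it was -0.87 ± 0.28 (edgeR adjusted p = 0.0721). Averaged over media, the log2 change of Tlr1 in hypoxia was -0.56 ± 0.22 (edgeR adjusted p = 0.254), and limma-voom with library quality weights, a setting added after the data were seen, called it (-0.58 ± 0.17, adjusted p = 0.0290). Between hypoxia-lactate and normoxia-NaCl, 3 members lay lower without overlap, Tlr1, Tlr2 and Tlr8, and 11.2% of all tested genes did so.

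Tlr6 (ENSMUSG00000051498), the other partner of Tlr2, averaged 10.3 ± 4.98 CPM in hypoxia-lactate, 15.6 ± 1.75 CPM in hypoxia-NaCl, 14.2 ± 2.45 CPM in normoxia-lactate and 14.7 ± 1.92 CPM in normoxia-NaCl libraries (SD, n = 3 each). Hypoxia-lactate 3, at 4.51 CPM, lay below all others, and the remaining 11 libraries lay between 11.9 and 17.5 CPM. The log2 change in hypoxia was -0.19 ± 0.25, and -0.02 ± 0.13 without hypoxia-lactate 3 (edgeR adjusted p = 0.777 and 0.937).

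The values of Tlr1 and Tlr6 carry a further uncertainty, because the genes, both on chromosome 5, share long stretches of coding sequence. In the transcripts of GENCODE M21 (build GRCm38) their coding sequences of 2385 and 2418 bases matched at 74.8% of aligned bases. The longest identical run was 229 bases, longer than the 200-base chemistry of the sequencing, and no other pair of the 8 receptors shared a run above 16 bases. Of all 50-base stretches of Tlr1, 19.4% also occurred in Tlr6. The run is shown here in capitals, with 30 coding bases on each side in lower case, because a read inside it fits both genes equally well. It spans positions 1468 to 1696 of the Tlr1 coding sequence and 1507 to 1735 of that of Tlr6, counted from the start codon.
Tlr1: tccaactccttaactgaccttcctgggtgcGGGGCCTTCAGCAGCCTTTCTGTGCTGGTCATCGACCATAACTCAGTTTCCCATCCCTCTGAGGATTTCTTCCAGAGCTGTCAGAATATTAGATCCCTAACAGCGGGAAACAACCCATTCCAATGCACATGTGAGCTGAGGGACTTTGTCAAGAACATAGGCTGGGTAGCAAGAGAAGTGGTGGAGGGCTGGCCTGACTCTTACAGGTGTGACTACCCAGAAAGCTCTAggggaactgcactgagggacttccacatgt
Tlr6: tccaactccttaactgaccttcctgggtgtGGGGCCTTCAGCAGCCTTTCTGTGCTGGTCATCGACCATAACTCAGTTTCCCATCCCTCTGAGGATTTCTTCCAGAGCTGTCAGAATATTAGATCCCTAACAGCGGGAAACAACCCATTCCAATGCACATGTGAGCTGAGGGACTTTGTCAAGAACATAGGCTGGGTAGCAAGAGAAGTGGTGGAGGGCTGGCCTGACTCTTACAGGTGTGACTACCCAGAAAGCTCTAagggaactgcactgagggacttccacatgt
Reads without a unique alignment were counted apart from the genes. The sources used here do not say how many reads from this run were among them, so the levels of both genes are uncertain.

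The endosomal receptors did not pass in any comparison of the fit to all libraries, nor without hypoxia-lactate 3. Tlr7 (ENSMUSG00000044583), which binds single-stranded RNA, averaged 220 ± 75.3 CPM in hypoxia-lactate, 250 ± 40.4 CPM in hypoxia-NaCl, 235 ± 44.3 CPM in normoxia-lactate and 200 ± 8.20 CPM in normoxia-NaCl libraries (SD, n = 3 each). Its log2 change in hypoxia was 0.11 ± 0.18, and 0.24 ± 0.12 without hypoxia-lactate 3 (edgeR adjusted p = 0.828 and 0.250). Without that library the other hypoxia-lactate values, 259 and 267 CPM, lay above the normoxia-NaCl values of 191, 202 and 207 CPM.

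Tlr8 (ENSMUSG00000040522), whose human form senses single-stranded RNA, had 79.6, 89.2 and 21.8 CPM in hypoxia-lactate libraries, 88.5, 101 and 93.1 CPM in hypoxia-NaCl libraries, 90.3, 99.9 and 132 CPM in normoxia-lactate libraries and 101, 99.4 and 94.3 CPM in normoxia-NaCl libraries. Outside hypoxia-lactate 3 and normoxia-lactate 3, the libraries lay within 79.6 to 101 CPM. Its log2 change in hypoxia was -0.41 ± 0.26, and -0.21 ± 0.11 without hypoxia-lactate 3 (edgeR adjusted p = 0.498 and 0.268).

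Tlr9 (ENSMUSG00000045322), the receptor for unmethylated DNA, had 27.1, 18.0 and 88.5 CPM in hypoxia-lactate libraries, 28.5, 15.7 and 16.1 CPM in hypoxia-NaCl libraries, 24.6, 17.5 and 21.8 CPM in normoxia-lactate libraries and 34.1, 15.9 and 22.3 CPM in normoxia-NaCl libraries. Hypoxia-lactate 3 held 4.06 times the median of the others, and the remaining groups overlapped. The log2 change between hypoxia-lactate and normoxia-NaCl was 0.88 ± 0.51 with this library and -0.09 ± 0.33 without it (edgeR adjusted p = 0.341 and 0.890), so the sign turned on that library. Averaged over media, the log2 change of Tlr9 in hypoxia was 0.40 ± 0.36 with it and -0.09 ± 0.22 without it (edgeR adjusted p = 0.645 and 0.833).

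Tlr13 (ENSMUSG00000033777), which binds bacterial ribosomal RNA, averaged 220 ± 42.4 CPM in hypoxia-lactate, 260 ± 36.4 CPM in hypoxia-NaCl, 270 ± 72.2 CPM in normoxia-lactate and 269 ± 33.3 CPM in normoxia-NaCl libraries (SD, n = 3 each). The groups overlapped, and the log2 change in hypoxia was -0.17 ± 0.16 (edgeR adjusted p = 0.660).

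Hypoxia-lactate 3 was below all 11 other libraries for 6 of the members, Ly96, Tlr1, Tlr6, Tlr7, Tlr8 and Tlr13, and above all of them for Tlr9. Of the 9985 tested genes with a median of at least 5 CPM in the other libraries, 37.0% lay below all others in this library and 35.8% above, so lying at an extreme was common there. Cd14, Tlr2 and Tlr4 lay within the range of the others. What set this library apart was not tested.

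The make-up of the receptor transcripts was compared within each library, where scaling between libraries cancels. Tlr13, Tlr7 and Tlr2 together made most of the summed level per kilobase of the 8 receptors, with mean shares over 12 libraries of 27.7%, 26.0% and 18.8%. The summed level, for which scaling does not cancel, was 208.5 ± 29.2 CPM per kilobase in hypoxia and 217 ± 27.2 CPM per kilobase in normoxia (SD, n = 6 each). These sums differed by less than their spread. The share of Tlr4 was 10.6% ± 1.11 in hypoxia and 7.29% ± 0.785 in normoxia. Hypoxia libraries held shares of 8.54% to 11.7% and normoxia libraries 6.35% to 8.62%, so they met only at hypoxia-lactate 3, whose share was the lowest in hypoxia. The share of Tlr9 in hypoxia-lactate 3 was 16.3%, against 2.02% to 4.12% in the other libraries. These shares are a description without a test.

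**Figure D3:**
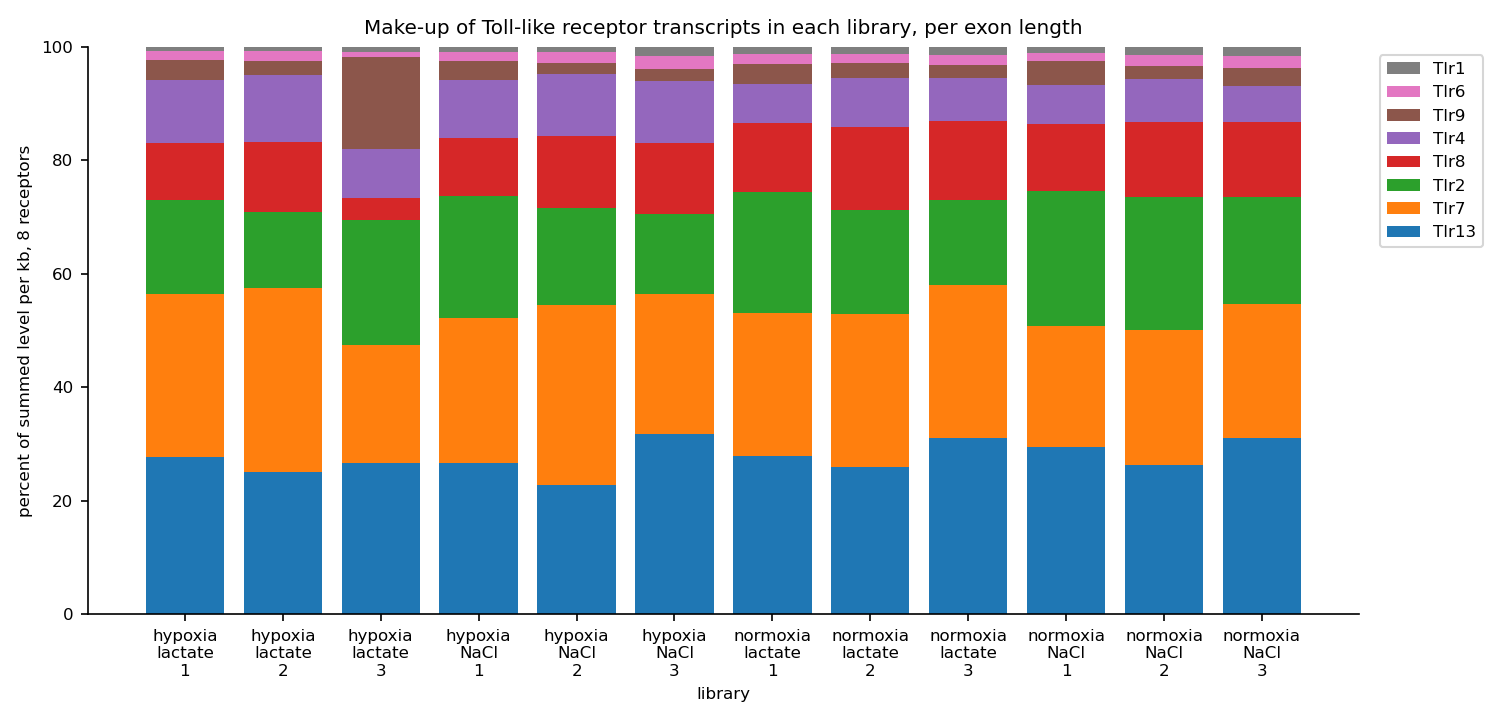
Share of each of 8 Toll-like receptors (percent, vertical axis) in their summed level per kilobase of exon, 1 bar for each library. Tlr4 takes 8.54% to 11.7% in the hypoxia libraries and 6.35% to 8.62% in the normoxia libraries, and Tlr9 takes 16.3% in hypoxia-lactate 3.

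The ratio of Cd14 to Tlr2 within a library had the same order of groups as the level of Cd14, and its ratio to Tlr4 did not. The level per kilobase of Cd14 was 28.3 ± 2.75 times that of Tlr2 in hypoxia-lactate, 19.7 ± 1.93 times in hypoxia-NaCl, 15.4 ± 2.11 times in normoxia-lactate and 8.01 ± 0.961 times in normoxia-NaCl libraries (SD, n = 3 each). Neighbouring groups overlapped only between hypoxia-NaCl and normoxia-lactate, at 17.5 to 21.2 and 13.7 to 17.8. Hypoxia-lactate 3 had a ratio of 25.2, above every library of the other groups. Cd14 was 48.2 ± 16.0 times Tlr4 in hypoxia-lactate, 31.97 ± 4.89 times in hypoxia-NaCl, 36.5 ± 6.68 times in normoxia-lactate and 25.6 ± 4.78 times in normoxia-NaCl libraries, so here normoxia-lactate lay above hypoxia-NaCl, within their spread. Cd14 was 243 ± 221 times Ly96 in hypoxia-lactate, where hypoxia-lactate 3 had 498, and 85.8 ± 34.0, 87.7 ± 20.8 and 46.5 ± 6.23 times in hypoxia-NaCl, normoxia-lactate and normoxia-NaCl libraries. The ratio of Tlr4 to Tlr2 was 0.637 ± 0.182 in hypoxia and 0.374 ± 0.0888 in normoxia (SD, n = 6 each), with overlap. A ratio shows unequal levels of its genes and not which of them changed.

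**Figure D4:**
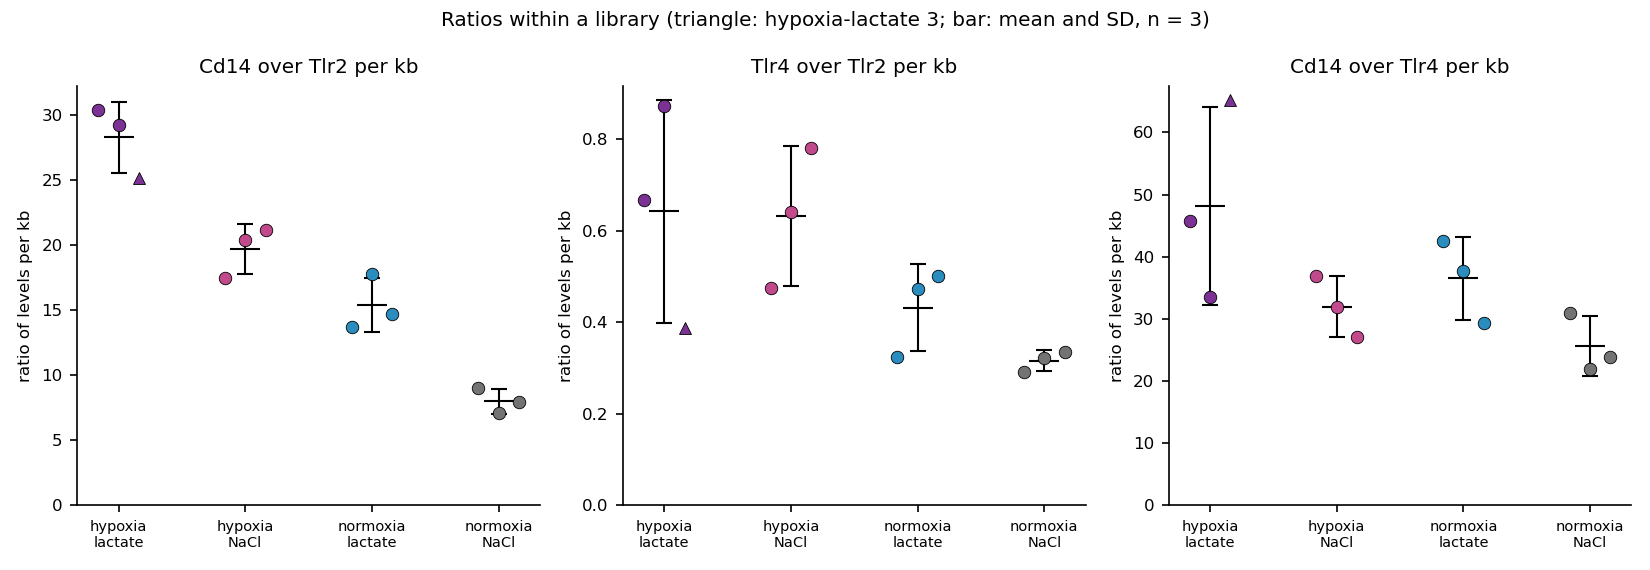
Ratios of levels per kilobase of exon (vertical axes, starting at 0) of Cd14 to Tlr2, Tlr4 to Tlr2 and Cd14 to Tlr4 in each library, with bars for the mean and SD (n = 3) and a triangle for hypoxia-lactate 3. Cd14 over Tlr2 runs from 25.2 to 30.4 in hypoxia-lactate and from 7.07 to 8.99 in normoxia-NaCl libraries.

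Over all 10 members the changes had no common direction. In hypoxia over normoxia, 5 had a positive log2 change, and their median was -0.08, beside -0.01 over all tested genes, of which 49.1% were positive. Between hypoxia-lactate and normoxia-NaCl, 4 were positive with a median of -0.36, beside -0.01 over all genes. In the separate hypoxia comparisons no member passed edgeR's test, where 0.281% of all genes passed with NaCl and 0.226% with lactate. At an unadjusted p under 0.05 there were 2 members with NaCl and 2 with lactate, beside 6.49% and 14.6% of all genes. DESeq2 called 1 and 0 members there and limma-voom none in either.

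No member passed for lactate or for the interaction. Averaged over both oxygen levels, lactate gave edgeR 0 members at the adjusted threshold, where 0.0342% of all genes passed, and 1 at an unadjusted p under 0.05, where 6.99% of all genes lay. That member was Cd14, at a log2 change of 0.45 ± 0.17 (edgeR adjusted p = 0.649), and DESeq2 and limma-voom called none. With weights for library quality limma-voom called Cd14 (log2 change 0.54 ± 0.12, adjusted p = 0.0417), a setting chosen after the data were seen. For lactate in normoxia, lactate in hypoxia and the interaction, edgeR called 0 of all 14616 genes (0%). At an unadjusted p under 0.05 there were 1, 2 and 0 members and 227, 1664 and 497 genes (1.55%, 11.4% and 3.4% of all), and DESeq2 called 10, 112 and 1 genes but no member.

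The rest of the pathway was read from 6 lists, in which few genes passed. Among 8 receptors and helpers outside the members, of which 5 could be tested, none passed in hypoxia over normoxia. The scavenger receptor Cd36, a helper of TLR2, had the smallest unadjusted p there (log2 change -0.45 ± 0.17, edgeR adjusted p = 0.233). Tlr3 had the smallest between hypoxia-lactate and normoxia-NaCl (-0.61 ± 0.26, edgeR adjusted p = 0.209), and DESeq2 called it (adjusted p = 0.0335). Lbp, Tlr11 and Tlr12 were too low to be tested.

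None of the 16 adaptors and receptor-proximal kinases passed in hypoxia over normoxia, 13 of them with a positive change and a median of 0.15. Over all tested genes about as many changes were positive as negative. Most genes of the NF-kappaB and interferon regulatory factor arm were positive too, and the tilt of either list was not tested. Myd88, the adaptor used by most Toll-like receptors, had 111, 105 and 356 CPM in hypoxia-lactate and 77.7, 95.0 and 93.0 CPM in normoxia-NaCl libraries. The highest value was again that of hypoxia-lactate 3, and the log2 change in hypoxia was 0.66 ± 0.26 with it and 0.25 ± 0.10 without it (edgeR adjusted p = 0.257 and 0.126). None of the 11 genes of endosomal traffic and receptor folding passed with all libraries. Unc93b1, which carries receptors to endosomes, ranged from 601 to 772 CPM in hypoxia and from 773 to 1020 CPM in normoxia, just without overlap. Its log2 change was -0.35 ± 0.13 (edgeR adjusted p = 0.208), and -0.40 ± 0.11 without hypoxia-lactate 3 (adjusted p = 0.0463). Without that library the folding helper Cnpy3 also passed between hypoxia-lactate and normoxia-NaCl (log2 change -0.73 ± 0.17, edgeR adjusted p = 0.0238), against -0.43 ± 0.23 with it (adjusted p = 0.298).

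None of the 15 genes of the NF-kappaB and interferon regulatory factor arm passed with all libraries. Tbk1, a kinase that activates interferon regulatory factors, had a log2 change of 0.47 ± 0.16 in hypoxia (edgeR adjusted p = 0.205). Irf7, which drives interferon genes downstream of endosomal receptors, had 3.75, 2.89 and 6.29 CPM in hypoxia-lactate and 13.1, 13.1 and 8.53 CPM in normoxia-NaCl libraries, without overlap. Its log2 change there was -1.43 ± 0.37 (edgeR adjusted p = 0.0731), and -1.79 ± 0.30 without hypoxia-lactate 3 (adjusted p = 0.00525). DESeq2 called Irf7 with all libraries (adjusted p = 0.00559). Chuk, a kinase of the NF-kappaB pathway, also passed there without hypoxia-lactate 3, as higher (log2 change 0.72 ± 0.20, edgeR adjusted p = 0.0472).

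Among 19 negative regulators Tnfaip3 passed as higher in hypoxia over normoxia, where 1.38% of all tested genes passed. It makes A20, an enzyme that ends NF-kappaB signalling. It had 28.1, 30.4 and 36.3 CPM in hypoxia-lactate, 27.5, 26.1 and 24.6 CPM in hypoxia-NaCl, 15.4, 15.7 and 14.6 CPM in normoxia-lactate and 11.7, 19.2 and 12.8 CPM in normoxia-NaCl libraries. All 6 hypoxia libraries lay above all 6 normoxia libraries, and the log2 change was 0.94 ± 0.17 (edgeR adjusted p = 0.0145). It was 0.88 ± 0.13 without hypoxia-lactate 3 (adjusted p = 0.00203). The adjusted p was 0.0657 and 0.0511 without hypoxia-NaCl 1 and 2, 0.0634, 0.0526 and 0.0622 without normoxia-lactate 1, 2 and 3, and 0.0585 without normoxia-NaCl 3.

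Of 24 genes induced by receptor signalling, 18 could be tested. In hypoxia over normoxia 2 of them passed, Il1b and Nos2, where 1.38% of all tested genes did. Il1b, the cytokine interleukin 1 beta, had 5.44, 7.13 and 4.09 CPM in hypoxia-lactate, 3.73, 1.80 and 3.18 CPM in hypoxia-NaCl, 1.52, 1.40 and 2.16 CPM in normoxia-lactate and 0.823, 0.816 and 0.626 CPM in normoxia-NaCl libraries. Hypoxia-NaCl and normoxia-lactate libraries overlapped, and the log2 change in hypoxia was 1.83 ± 0.31 (edgeR adjusted p = 0.0108). Without hypoxia-NaCl 1, normoxia-lactate 1, normoxia-lactate 2 or normoxia-NaCl 3 the adjusted p of Il1b was 0.0542, 0.0611, 0.0522 and 0.0529. Nos2, the inducible nitric oxide synthase, had 0.559 to 6.16 CPM in hypoxia and 0 to 0.211 CPM in normoxia, where 2 libraries held no read (edgeR adjusted p = 0.0348). The adjusted p of Nos2 ranged from 0.0621 to 0.125 when hypoxia-lactate 1 or any one hypoxia-NaCl, normoxia-lactate or normoxia-NaCl library other than normoxia-NaCl 2 was left out, and no fold is given for it because of the empty libraries. Il6, Il10, Il12a, Il12b, Il23a and Ifnb1, cytokine genes typical of stimulated macrophages, were too low to be tested, at 0.450 CPM or less.

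Between hypoxia-lactate and normoxia-NaCl, 2 genes of the induced list passed, Il1b and Saa3, where 1.61% of all genes did. The log2 change of Il1b was 2.88 ± 0.46 (edgeR adjusted p = 0.00887). Its adjusted p was 0.0583 without normoxia-NaCl 3 and 0.252 when only these 6 libraries entered the fit. Saa3, an acute-phase protein, had 70.0, 38.0 and 135 CPM in hypoxia-lactate and 29.3, 17.2 and 15.7 CPM in normoxia-NaCl libraries, without overlap. Its log2 change was 1.97 ± 0.43 (edgeR adjusted p = 0.0431), and 1.39 ± 0.34 without hypoxia-lactate 3 (adjusted p = 0.0281). Saa3 lost the call without any one of the hypoxia-NaCl, normoxia-lactate or normoxia-NaCl libraries (adjusted p between 0.0597 and 0.139), by limma-voom (0.0503) and in the fit of only these groups (0.371). Tnfaip3 passed as well (log2 change 1.12 ± 0.24, edgeR adjusted p = 0.0381). It lost the call without any one of the same libraries other than normoxia-NaCl 2 (adjusted p between 0.0676 and 0.139), with upper-quartile scaling (0.0709), without a filter (0.0509) and in the fit of only these groups (0.505).

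Without hypoxia-lactate 3 more of the induced list passed in hypoxia over normoxia, 4 higher and 1 lower of 18, where the share of all genes passing was 7.59%, against 1.38% with all libraries. Nfkbiz, an inducible NF-kappaB cofactor, then had a log2 change of 1.03 ± 0.15 (edgeR adjusted p = 0.00132), against 0.85 ± 0.27 with all libraries (adjusted p = 0.166). It had 55.9, 64.5 and 18.0 CPM in hypoxia-lactate and 11.4, 19.3 and 18.0 CPM in normoxia-NaCl libraries, where the last hypoxia-lactate value is that of hypoxia-lactate 3. Ptgs2, which makes prostaglandins, then had 1.10 ± 0.29 (edgeR adjusted p = 0.0373), against 0.84 ± 0.50 with all libraries (adjusted p = 0.462). The 1 lower gene was Ccl2, a chemokine that attracts monocytes (log2 change -2.10 ± 0.57, edgeR adjusted p = 0.0433), against -2.33 ± 0.65 with all libraries (adjusted p = 0.118). It had 0.206, 0.150 and 0 CPM in hypoxia-lactate, 0.224, 0.248 and 0.0322 CPM in hypoxia-NaCl, 0.520, 0.553 and 0.289 CPM in normoxia-lactate and 1.14, 2.16 and 0.489 CPM in normoxia-NaCl libraries. All hypoxia values lay below all normoxia values, on 0 to 11 reads in hypoxia. DESeq2 called Ccl2 with all libraries (adjusted p = 0.00737), as did edgeR with the replicate block (adjusted p = 0.0458). Il1b, Nos2, Ptgs2 and Ccl2 averaged under 5 CPM and are named although the rule for named genes asks for more, after their values were seen.

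**Figure D5:**
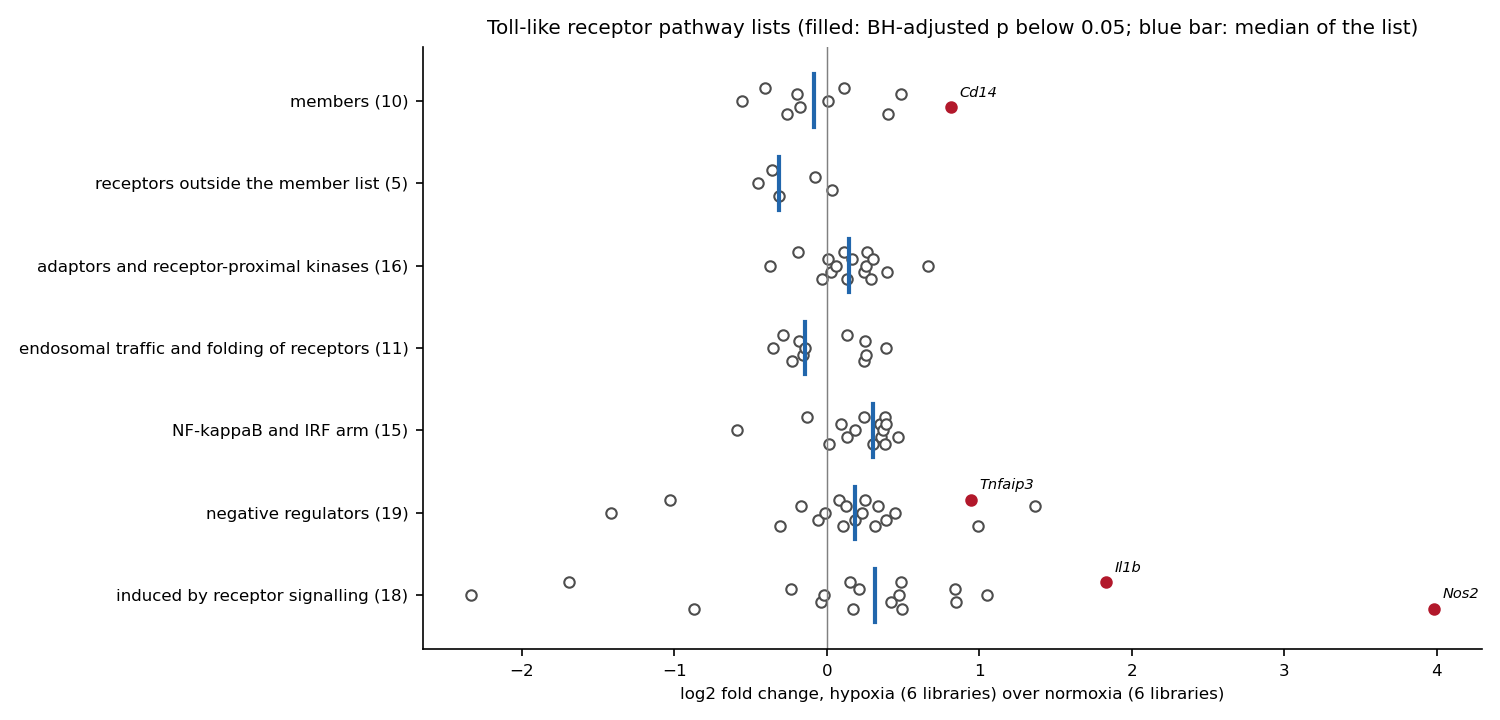
Log2 fold change in hypoxia over normoxia (horizontal axis, all 12 libraries) of every tested gene of the member list and of 6 pathway lists, with the number tested in parentheses and a blue bar at the median. Filled points passed an adjusted p of 0.05: Cd14, Tnfaip3, Il1b and Nos2.

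The genes most like Cd14 over the 12 libraries, among 9909 with a symbol and at least 5 CPM, were Traf1, Med22 and Cx3cr1, with Spearman correlations of 0.944, 0.937 and 0.937 of log2 CPM. Traf1 ranged from 25.4 to 128 CPM, Med22 from 162 to 346 CPM and Cx3cr1 from 50.5 to 386 CPM. Among the members, Cd14 correlated with Tlr4 at 0.636 over 12 libraries and at 0.855 over 11 without hypoxia-lactate 3. With Tlr1 it correlated at -0.790 over 12 libraries. These libraries share the 4 conditions, so the correlations describe the groups as well as the libraries, and no p is given.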

How the data were processed

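Poly(A) RNA of 12 libraries was sequenced on an Ion Proton with 200-base chemistry, per the labels' protocols. The authors deposited 1 table of raw counts per gene. Of the tools behind it, BWA and HTSeq are named in the submitters' processing notes, with the mm9 build. The sources used here do not give their versions, the annotation release or the strand setting. Rows that name no gene took 13.7% to 22.0% (outside genes) and 8.34% to 18.4% (not unique) of the table's reads and were left out. Symbols and exon lengths came from GENCODE M21 (GRCm38), which gave 32897 of 37620 identifiers a symbol; no annotated gene overlapped a member's exons there, and no coordinates were used.

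After filterByExpr and TMM scaling, counts were tested with the quasi-likelihood F test of edgeR 4.0.16 on all 12 libraries with 1 mean per group. The p-values were adjusted by Benjamini-Hochberg over all 14616 tested genes, with a threshold of 0.05, and SEs come from the F statistic. CPM use TMM-scaled library sizes. The TMM factors were 0.742 in hypoxia-lactate 3, 0.864 in normoxia-NaCl 1 and 1.01 to 1.10 in the others. A factor below 1 raises the CPM of its library. DESeq2 1.42.0 and limma 3.58.1 (voom) were alternatives. The fit was also run on simulated counts with the same spread for every gene and no outlying library, unlike the data. Intervals cover the spread between libraries only, and PCR duplicates could not be removed.

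Same-numbered libraries of hypoxia-NaCl and normoxia-NaCl deviated together (correlations 0.142, 0.397 and 0.190 of deviations from group means). None of the other pairs checked had a correlation over 0.1 in every number, and the main model has no block for the number. Hypoxia-NaCl was not checked against normoxia-lactate. The pairs with hypoxia-lactate include its outlying library, so the check cannot exclude a shared effect of the number. Outside that library, neutrophil and fibroblast marker sums followed the number in every group. The p-values of the main model leave any such pairing out. With that library left out, 2211 genes passed for hypoxia averaged with the block and 1145 without the block.

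Named were all members, the other receptors by level, and from each list up to 3 genes each way that passed with at least 5 CPM, or else the gene with the smallest unadjusted p. For Cd14, which passed, the 3 most correlated genes were added. The members and lists were chosen with earlier results of these data known.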

Additional observations from a re-analysis of the deposited data

Results flagged for a closer look

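Over the pools of 6 hypoxia, normoxia, lactate or NaCl libraries, 7 of 40 pools of a member held a value far from the rest, judged by its gap to the nearest library over the whole range. Chance gives about 1 in 20 for independent values from 1 normally distributed group. The pools here each join a pair of groups and share libraries, so 7 of 40 cannot be set against that rate. In 5 of the 7 the library was hypoxia-lactate 3. Among hypoxia libraries it was lowest for Tlr4, at 74.0 CPM against 126 to 137 CPM in the other 5, for Tlr6, at 4.51 CPM against 13.1 to 17.5 CPM, and for Tlr8, at 21.8 CPM against 79.6 to 101 CPM. It was highest for Tlr9, at 88.5 CPM, both among hypoxia libraries (others 15.7 to 28.5 CPM) and among lactate libraries (others 17.5 to 27.1 CPM). Among normoxia libraries, normoxia-lactate 3 was highest for Tlr7, at 287 CPM against 191 to 211 CPM, and for Tlr8, at 132 CPM against 90.3 to 101 CPM. No cause was tested.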

How the results depend on the processing

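No member called with all libraries reversed under any alternative, and no member was called in the opposite direction. The number of members called in hypoxia over normoxia, 1 with all libraries, was 0 with upper-quartile scaling, 2 by DESeq2 and 0 to 2 when a single library was left out. Between hypoxia-lactate and normoxia-NaCl it was 0 in a fit of only these groups, 2 by DESeq2 and 0 to 2 with a library left out. Between hypoxia-NaCl and normoxia-NaCl it was 1 by DESeq2 and 0 to 2 with a library left out. Settings chosen after the data were seen gave, for hypoxia over normoxia, hypoxia-lactate over normoxia-NaCl and hypoxia-NaCl over normoxia-NaCl, 2, 2 and 2 members without hypoxia-lactate 3 and normoxia-NaCl 1, 3, 2 and 2 with limma-voom library quality weights, and 3, 3 and 2 with the replicate block and without hypoxia-lactate 3. The weights also gave 2 members for hypoxia with lactate and 1 for lactate averaged.

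Counts over all genes moved more. Leaving out a single library gave 81 to 1145 genes for hypoxia averaged, 67 to 1035 for both together, 7 to 270 for hypoxia without lactate, 3 to 130 for hypoxia with lactate, 0 to 46 for lactate averaged, 0 to 5 for lactate in normoxia and 0 to 6 for lactate in hypoxia. In the same order DESeq2 gave 859, 1450, 153, 437, 103, 10 and 112, and 1 for the interaction. Without both outlying libraries there were 1362, 912, 188, 380, 55, 3 and 11, and with quality weights 2210, 1078, 525, 737, 173, 11 and 16, with 2 for the interaction. Fits of only the groups compared gave 6 for both together and 3 for hypoxia with lactate, and no filter gave 1 for lactate in normoxia. The replicate block gave 0 for lactate averaged and changed no member's call. With hypoxia-lactate 3 also left out the block gave 2211, 2116, 767, 261, 256, 43 and 16. Upper-quartile scaling moved the median of all genes to -0.16 for hypoxia with lactate, -0.15 for lactate in hypoxia, -0.13 for both together and -0.16 for the interaction on the log2 scale, and the share of positive changes with it.

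Signs turned only where no call was made. For Ly96 the log2 change in hypoxia was -0.026 with upper-quartile scaling, -0.063 with limma-voom and -0.0100 with the replicate block, and ran from -0.20 to 0.22 with a library left out. Between hypoxia-lactate and normoxia-NaCl, Ly96 ran from -0.84 to 0.0080 with a library left out. It had 0.12 without both outlying libraries, 0.12 with quality weights and 0.081 with the block and without hypoxia-lactate 3. Tlr7 there ran from -0.031 to 0.40. Tlr9 ran from -0.092 to 0.58 in hypoxia averaged and from -0.091 to 1.26 in both together, and had -0.12 and -0.10 with the block and without hypoxia-lactate 3. Under that last setting Tlr6 had 0.024 in hypoxia and Tlr8 0.0041 with lactate, against -0.31 to -0.023 and -0.38 to -0.0097 with a single library left out. For lactate averaged, Tlr4 ran from -0.10 to 0.092 with a library left out, and had 0.12 without both outlying libraries, 0.041 with quality weights and 0.090 with the block and without hypoxia-lactate 3. For lactate in hypoxia, Tlr4 ran from -0.36 to 0.013, and had 0.0073 without both outlying libraries and 0.0078 with the block and without hypoxia-lactate 3. For lactate averaged, Tlr7 had -0.010 with upper-quartile scaling and -0.0061 with limma-voom, and ran from -0.058 to 0.16 with a library left out. The cause was not tested. Depth limits Ly96, Tlr1 and Tlr6 most, which held as few as 30, 80 and 76 reads in a library.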
